A study of Homo sapiens with 4 samples.

Results

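The genes studied here make microRNAs and carry out their work, and they were read on 4 Illumina bead arrays of human colon adenocarcinoma cells. The set holds 10 genes: DROSHA, DGCR8, XPO5, DICER1, TARBP2, AGO1, AGO2, AGO3, AGO4 and TNRC6A. They were taken as the probes whose platform gene symbol, current or earlier (EIF2C2 for AGO2, RNASEN for DROSHA), was one of these names. All 10 had a probe, 18 probes in all among the 48803 on the array, out of 18665 genes with a named probe. The cultures were LvM3b control cells, LvM3b cells over-expressing miR-483 (miR-483-5p in the study's title), LvM3b cells over-expressing miR-551a, and Ls-Parental cells. No treatment other than these was labelled, and all were grown in DMEM with serum. There was 1 array per culture, so no group had a replicate, no test could be made and no p-value was computed. The labels do not say how the microRNAs were delivered or whether the cultures were single clones. The title and source name of the Ls-Parental sample name a parental colon cancer line, while its cell line entry reads LvM3b.

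MicroRNAs begin as long primary transcripts with hairpins. In the nucleus DROSHA, an RNase III enzyme, and DGCR8, its RNA-binding partner, together form the Microprocessor, which cuts the hairpin out. XPO5 carries the hairpin to the cytoplasm, where DICER1, helped by TARBP2, trims it, and an Argonaute protein (AGO1 to AGO4) keeps a single strand as its guide. TNRC6A, also called GW182, binds Argonaute and brings in the deadenylases that shorten the tails of target messenger RNAs. The over-expressed microRNAs act through these same Argonaute and TNRC6 proteins. The arrays show how the messenger RNAs of the machinery read in single cultures labelled as over-expressing a microRNA.

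The microRNA sequences that bear on the set are shown with the seed, bases 2 to 8, in capitals; the seed is the part that pairs with target messenger RNAs. They were taken from RefSeq (GRCh38.p14). The over-expressed miR-551a is encoded at chr1:3560710-3560730 on the minus strand, and its seed is carried by 2 of the 2545 mature microRNAs tabulated by RefSeq, the other being miR-551b-3p (chr3:168551914-168551934, plus strand). The next sequences are mature microRNAs encoded inside the spans of set members, which makes those members hosts as well as parts of the pathway. Of them 3 lie in DGCR8 on chromosome 22, plus strand, and a pair in DICER1 on chromosome 14, minus strand. None of these host-encoded microRNAs shares the miR-551a seed. The sequence of miR-483 was absent from the RefSeq sequences used, so it is not shown and its seed was not compared.
hsa-miR-551a: gCGACCCAcucuugguuucca
hsa-miR-551b-3p: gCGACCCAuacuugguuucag
hsa-miR-3618, in DGCR8 at chr22:20085797-20085818: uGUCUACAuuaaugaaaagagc
hsa-miR-1306-5p, in DGCR8 at chr22:20086072-20086093: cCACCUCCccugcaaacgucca
hsa-miR-1306-3p, in DGCR8 at chr22:20086112-20086129: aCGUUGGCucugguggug
hsa-miR-3173-5p, in DICER1 at chr14:95137961-95137982: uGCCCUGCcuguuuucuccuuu
hsa-miR-3173-3p, in DICER1 at chr14:95137923-95137944: aAAGGAGGaaauaggcaggcca

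A probe was taken as detected on an array where its detection p was under 0.01. Between 13861 and 14628 probes were detected per array, and the lowest detected level was 6.38 on the control array and 6.13 to 6.19 on the other 3, on the log2 scale of normalized signal used throughout. Colon epithelial markers were detected for 9 of 10 genes in each LvM3b culture and for 10 of 10 in Ls-Parental, KRT20 being the one below background in LvM3b. Of 6 fibroblast markers, LUM and COL3A1 were detected on the 3 LvM3b arrays and none on the Ls-Parental array. Of 5 leukocyte markers LYZ was detected on all 4 arrays, with levels of 9.38, 9.38 and 9.16 in the control, miR-483 and miR-551a cultures and 11.91 in Ls-Parental, and CD14 in Ls-Parental alone, at 8.48, while PTPRC, CD3E and HLA-DRA were detected on none. Of 5 hepatocyte markers SERPINA1 was detected on all 4 arrays, at 7.27, 7.31, 6.88 and 8.75 in the same order, and ALB, APOA1, FGB and TTR on none. Of 4 endothelial markers PECAM1 was detected on the miR-483 array alone and the others on none. The part of these markers in the differences from Ls-Parental was not tested. IGF2, whose locus encodes miR-483, was detected on no array. The probes read messenger RNA, and whether the intended microRNA was raised in each culture was not analysed here. The number of arrays limits the precision of every value below.

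Of the 10 genes 9 were detected in all 4 cultures. Among all 18665 genes 10095 were detected on at least 1 array, and 8888 besides AGO3 on all 4. Of the 18 probes of the set, 13 were detected on at least 1 array and 12 on all 4. The exception among the 10 genes was AGO4, detected on the Ls-Parental array only. Each gene was read from its brightest probe, and the others are given beside it where they were detected. Levels of different genes come from different probes and are not compared with each other.

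DROSHA makes the nuclear cut. Its log2 level was 10.65 in control cells, 10.63 and 10.59 in the miR-483 and miR-551a cultures, and 10.68 in Ls-Parental cells, a range of 0.08 that was the narrowest of the 10 genes. The 4 cultures were thus nearly level for DROSHA on this scale, and its second probe was not detected on any array. With the authors' scaled values DROSHA lay up to 0.14 above Ls-Parental, and with median scaling up to 0.17. In both settings TARBP2 had a narrower range, so DROSHA was no longer the narrowest. DGCR8, the hairpin-binding partner, had levels of 9.33, 9.53, 9.58 and 9.47 in the same order. The control array was the lowest of the 4 and the miR-551a array the highest, 1.19-fold apart. XPO5, the export receptor, had levels of 8.05, 8.38, 8.50 and 8.46. Here the control array stood apart on the low side, and the other 3 lay within 0.12 of each other.

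DICER1, which trims the exported hairpin, had levels of 9.002 in the control, 8.84 and 9.24 in the miR-483 and miR-551a cultures, and 8.90 in Ls-Parental. Its second detected probe read 8.73, 8.24, 8.51 and 8.51. Both probes were lowest on the miR-483 array, but the highest array was miR-551a by the first probe and the control by the second. TARBP2, the partner of DICER1, had levels of 8.86, 8.90, 8.89 and 9.02, and its second probe 8.36, 8.50, 8.61 and 8.56. The first probe spanned 0.16 over the 4 arrays, and both probes were lowest on the control array.

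Among the Argonautes, AGO1 had levels of 8.49 in the control, 8.66 and 8.89 in the miR-483 and miR-551a cultures, and 8.39 in Ls-Parental. AGO2, the Argonaute known in human cells for cutting fully paired targets, had levels of 9.84, 9.70, 10.12 and 9.64. For both genes the miR-551a array was the highest and Ls-Parental the lowest, with ranges of 0.50 and 0.48. AGO3 had levels of 7.92, 8.02, 7.77 and 7.36 by its brightest probe and 6.87, 6.73, 7.15 and 6.76 by the second, which was designed to another RefSeq transcript. The miR-551a array was thus the highest by the second probe and only the third of 4 by the first. AGO4 read 5.79, 5.78, 5.53 and 6.17. It was above background in Ls-Parental alone, where its detection p was 0.0092, and that level was below the lowest detected level on the control array, so no fold is given. In the RefSeq annotation AGO4, AGO1 and AGO3 follow each other on chromosome 1 with no other protein-coding gene between them.

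TNRC6A, the scaffold that links Argonaute to the deadenylases, had levels of 9.05 in the control, 8.83 and 8.97 in the miR-483 and miR-551a cultures, and 8.66 in Ls-Parental. All 3 LvM3b arrays were above Ls-Parental. Its other probes were not detected on any array.

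**Figure D1:**
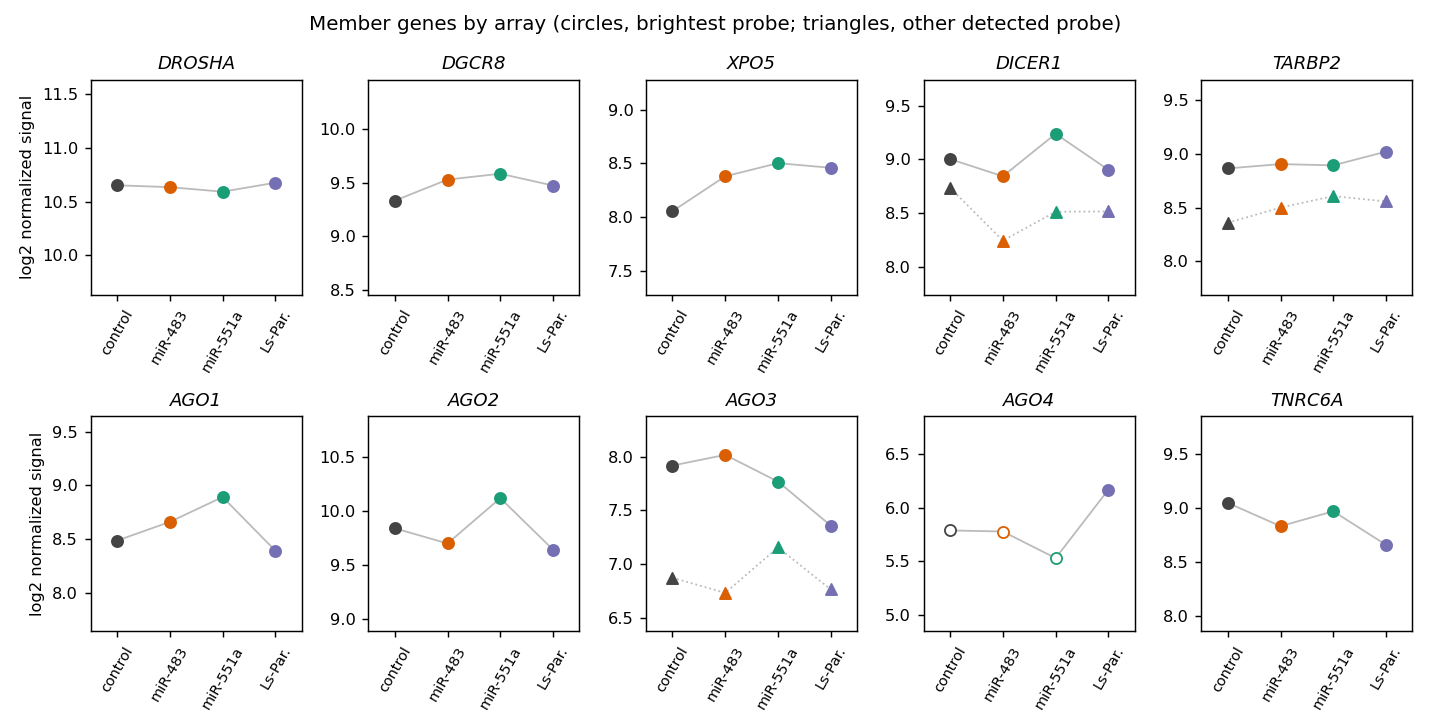
Log2 normalized signal (y axis, each panel spanning 2 log2 units) of each member gene on the 4 arrays (x axis), 1 point per array; circles are the brightest probe, triangles a second detected probe, and open symbols mark an array where the probe was not detected. DROSHA is nearly flat with a range of 0.08, AGO3 has the widest range among member genes detected everywhere, 0.66, and AGO4 is filled for Ls-Parental only.

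The first comparison set the miR-483 culture against the LvM3b control. None of the 9 genes detected on these arrays differed by 1.5-fold, where 3.28% of 9673 genes did. XPO5 was the furthest higher, 1.25-fold (log2 difference 0.32), and TNRC6A the furthest lower, 1.16-fold (-0.22). Of the 9 genes 5 were higher, as were 51.5% of all genes, and 4 lower, with a median of 0.04 against 0.01 over all genes. Higher were XPO5, DGCR8 (0.20), AGO1 (0.17), AGO3 (0.10) and TARBP2 (0.04). Lower were TNRC6A, DICER1 (-0.16), AGO2 (-0.14) and DROSHA (-0.02). The directions of AGO3, whose value was -0.02 as the mean of its probes, and of DROSHA, 0.04 with median scaling, did not hold in every setting. The second DICER1 probe differed by -0.49, further down than the first, and is the widest difference of any detected probe of the set here.

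The second comparison set the miR-551a culture against the same control, so its values and those for miR-483 share the control array. Again 0 of 9 genes differed by 1.5-fold, against 4.21% of 9619 genes. XPO5 was 1.36-fold higher (0.45), and 4.24% of all genes were as far up or further. AGO1 was 1.32-fold higher (0.41), with 5.47% as far up or further. These shares count higher genes only, while the share at 1.5-fold counts both directions. AGO2 (0.28), DGCR8 (0.25), DICER1 (0.24) and TARBP2 (0.03) were also higher, and AGO3 (-0.15), TNRC6A (-0.08) and DROSHA (-0.06) lower. Of the 9 genes 6 were higher, where 51% of all genes were, and the median was 0.24 against 0.01 over all genes. That median was 0.14 with each gene as the mean of its detected probes and 0.13 with AGO4 included. TARBP2 turned to -0.01 with median scaling and AGO3 to 0.07 as the mean of its probes. The second probes of DICER1 and AGO3 had the opposite sign to the first, -0.22 for DICER1 and 0.28 for AGO3.

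The over-expressing cultures were then set against each other, which leaves the control array out. None of the 9 genes differed by 1.5-fold, against 2.95% of 9753 genes. AGO2 was 1.34-fold higher with miR-551a than with miR-483 (0.42), and 3.05% of genes were as far up or further. DICER1 was 1.32-fold higher (0.40), with 3.60% of genes as far up or further, and its second probe was also higher there, by 0.27. AGO1 (0.23), TNRC6A (0.14), XPO5 (0.12) and DGCR8 (0.05) were higher with miR-551a too. These 6 of 9 compare with 49.9% of all genes. AGO3 (-0.25), DROSHA (-0.04) and TARBP2 (-0.01) were lower, though the second AGO3 probe was higher by 0.42. With median scaling DGCR8 turned to -0.03, and as the mean of their probes TARBP2 turned to 0.05 and AGO3 to 0.09. The median of the 9 was 0.12 against 0.00 over all genes, and with median scaling 0.044 against -0.09, with 31.1% of all genes higher. XPO5, the gene furthest from the control in both microRNA cultures, differed little between them.

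**Figure D2:**
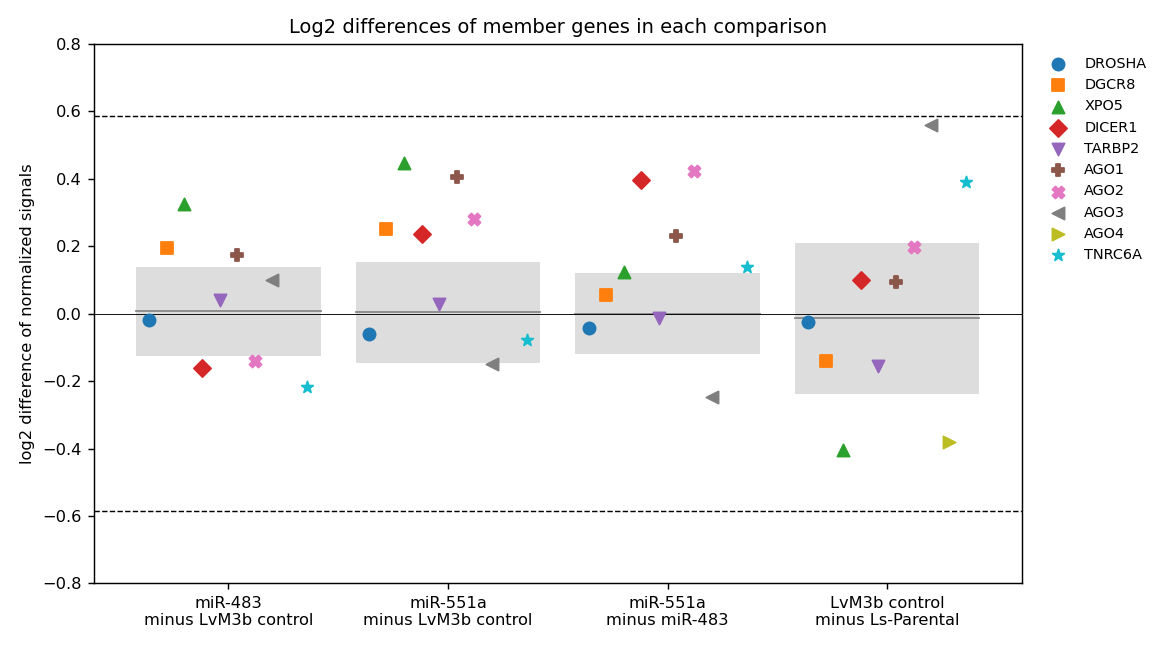
Log2 difference of normalized signals (y axis) for each member gene in 4 comparisons of single arrays (x axis), 1 symbol per gene, with grey bands from the lower to the upper quartile of all genes tested, a grey line at their median and dashed lines at 1.5-fold. All symbols lie inside the dashed lines, and the nearest is AGO3 in the LvM3b control over Ls-Parental at 0.56.

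The last comparison set LvM3b against Ls-Parental. In bulk RNA, fewer cells expressing a gene and less RNA per cell cannot be told apart. None of the 10 genes differed by 1.5-fold between the LvM3b control and Ls-Parental, where 14.8% of 9817 genes did. AGO3 came closest, 1.47-fold higher in the control (0.56), though its second probe gave 0.11. TNRC6A was 1.31-fold higher (0.39), AGO2 differed by 0.20, DICER1 by 0.10 and AGO1 by 0.09. XPO5 was 1.32-fold lower (-0.40), and TARBP2 differed by -0.16, DGCR8 by -0.14 and DROSHA by -0.02. In all 5 of 10 were higher in the control, as were 48.1% of all genes. The sign for DROSHA turned with the authors' scaled values and with median scaling, up to 0.14. Those settings also moved the median of all genes, from -0.01 to 0.10 in each, so values near zero have no settled direction here. With median scaling AGO3 passed 1.5-fold, at 0.60, as did 15.8% of all genes.

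The other LvM3b arrays were also set against Ls-Parental, and all 3 comparisons share that array. AGO3 was 0.66 above Ls-Parental with miR-483 by its brightest probe, past 1.5-fold as were 17% of 9973 genes, but its second probe gave -0.03. The brightest probe was inside 1.5-fold with the authors' scaled values (0.52), without background correction (0.47) and with an offset of 50 (0.56), and so was the mean of the probes (0.31). With miR-551a AGO3 lay 0.41 above by the brightest probe and 0.39 by the second. TNRC6A was above Ls-Parental in all 3, by 0.39, 0.17 and 0.31, AGO1 by 0.09, 0.27 and 0.50, and AGO2 by 0.20, 0.06 and 0.48. DROSHA and TARBP2 were below it in all 3, by at most 0.08 and 0.16, though the second TARBP2 probe was 0.05 above with miR-551a. With the authors' scaled values DROSHA was above it in all 3, by 0.14, 0.13 and 0.06, and TARBP2 was 0.01 above with miR-483, and median scaling gave the same changes of side. AGO4 also read lower in all 3, where it was below background, so no difference is given. Thus 7 of 10 genes had the 3 LvM3b arrays on 1 side of Ls-Parental, and so did 71.4% of the 10095 genes detected on any array. AGO4 is among the 7 but was detected on Ls-Parental alone, so the detection filter itself favoured its reading lower in LvM3b. Of these 7, AGO1, AGO2, AGO3, TNRC6A and AGO4 kept their side in every scaling and as the mean of probes, 5 of 10. Of the scalings only the authors' values and median scaling could change a side. The share of all genes that kept theirs was not computed, so this count has no background beside it. XPO5 did not lie on 1 side: the control was 0.40 below Ls-Parental, while the miR-483 and miR-551a arrays differed from it by -0.08 and 0.04. The difference for XPO5 therefore rests on the control array.

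Second probes gave a measure of how far 1 gene's value can vary within the same arrays. AGO3, DICER1 and TARBP2 each had a second probe detected on all 4 arrays, which made 12 pairs over the 4 comparisons, and in 5 of them the probes had opposite signs. Over all genes with a second detected probe the signs were opposite in 41.8%, 38.9%, 44.1% and 31.1% in the 4 comparisons, so these genes were near the background. The comparisons share arrays, so these pairs are not independent. For AGO3 the probes lay 0.24, 0.43, 0.67 and 0.45 apart in the order of the comparisons above, more than the first probe's own difference in the first 3. For DICER1 they lay 0.33, 0.46, 0.13 and 0.12 apart, and for TARBP2 0.10, 0.22, 0.12 and 0.04 apart. Over all such genes, between 2106 and 2214 per comparison, the median gap was 0.15 to 0.19. The median size of a member's difference was 0.16, 0.24, 0.14 and 0.18 in the 4 comparisons, beside gaps of 0.17, 0.17, 0.15 and 0.19. The probes may read different transcripts of a gene, which was not tested.

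**Figure D3:**
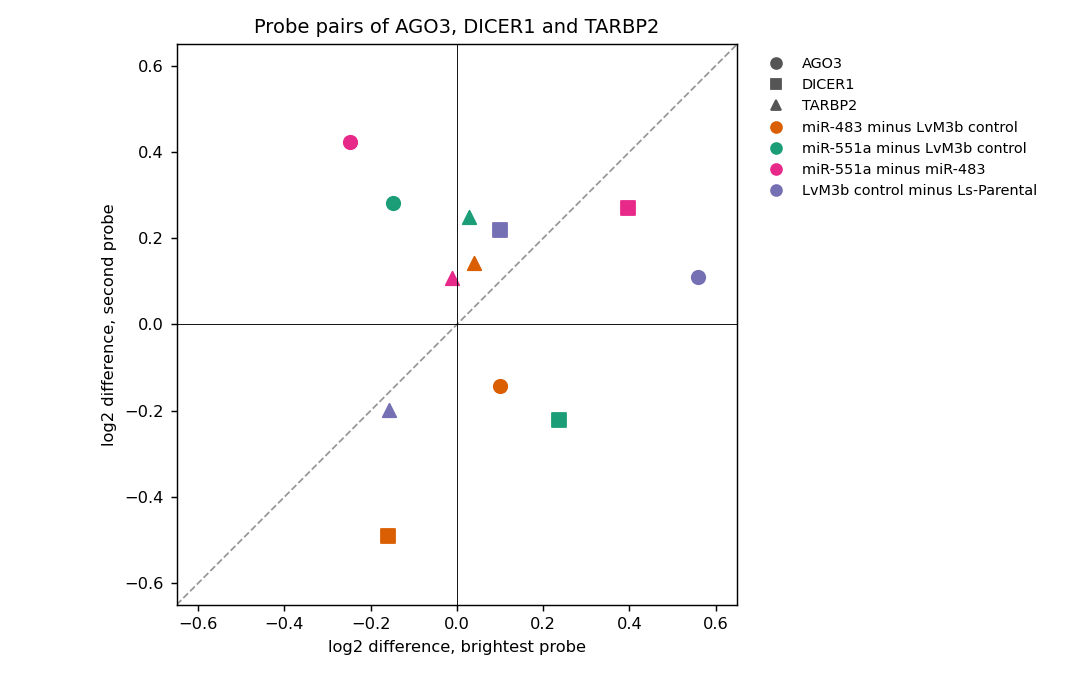
Log2 difference by the second detected probe (y axis) against that by the brightest probe (x axis) for AGO3, DICER1 and TARBP2, with colour for the comparison and a dashed line where both are equal. Points in the upper left and lower right have opposite signs, 5 of 12, and AGO3 with miR-551a minus miR-483 lies furthest from the line, with a gap of 0.67.

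Other genes of the pathway were read in 4 lists, of 57 genes in all, of which 47 were detected in each comparison. At 1.5-fold 0 differed with miR-483 over the control and 0 between the control and Ls-Parental, where 3.28% and 14.8% of all genes did. With miR-551a 1 of the 47 was past it, lower against the control and against miR-483 and the same gene in both, where 4.21% and 2.95% of all genes differed either way. That gene was AJUBA, a LIM protein reported to bind Argonaute. Its level was 8.43 in the control, 8.07 and 7.39 in the miR-483 and miR-551a cultures, and 8.02 in Ls-Parental, so the miR-551a array was the lowest and the control the highest. It was 2.05-fold lower with miR-551a than in the control (-1.03), and -0.77 without background correction, and 1.60-fold lower than with miR-483 (-0.68). The difference from miR-483 was inside 1.5-fold with the authors' scaled values (-0.49), without background correction (-0.48) and with an offset of 50 (-0.58). Its other probes were not detected on any array.

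Partners of the Microprocessor and of export were mostly higher with miR-483. Of 11 detected 10 were higher than in the control, as were 51.5% of all genes, and 1, NCBP1 (-0.21), was lower, none by 1.5-fold, with a median of 0.23 against 0.01 over all genes. The count was 10 in every scaling, with medians of 0.21 to 0.28. Only the authors' scaled values and median scaling could change a sign, and there 52.6% and 60.9% of all genes were higher. The RNA helicase DDX5 differed by 0.04 and SRRT, a cap-complex adaptor, by 0.33. RAN, the GTPase that loads XPO5, differed by 0.27. With miR-551a 8 of 11 were higher, beside 51% of all genes, with a median of 0.08. With median scaling 6 of 11 were higher (median 0.01), beside 43.6% of all genes (median -0.03). Against Ls-Parental the control was lower in 7 of 11 (median -0.11), as it was for 51.8% of all genes. That median turned to 0.01 with median scaling and 0.02 with the authors' scaled values. The median of all genes moved from -0.01 to 0.10 in both, so the list median stayed below it.

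Partners of DICER1 and enzymes that modify precursors showed no common direction. Of 8 detected 3 were higher and 5 lower with miR-483 (median -0.10), and 4 and 4 with miR-551a (0.04). Of all genes 51.5% and 51% were higher. ADAR, which edits adenosines in RNA, differed by -0.09 and 0.09, and PRKRA, another partner of DICER1, by 0.31 and 0.17. The LIN28A and LIN28B genes, whose proteins block let-7 maturation, were detected on no array. In the LvM3b control over Ls-Parental 6 of 8 were higher, beside 48.1% of all genes, with a median of 0.15. With the authors' scaled values and with median scaling 7 of 8 were higher, where 64.6% and 61.8% of all genes were.

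Of 9 detected genes for loading and partners of the silencing complex, 8 were higher with miR-483 (median 0.14) and 7 with miR-551a (median 0.09), beside 51.5% and 51% of all genes. With median scaling the counts were again 8 and 7, where 60.9% and 43.6% of all genes were higher. The chaperone HSP90AA1 differed by 0.17 and 0.19 and HSPA8 by 0.24 and 0.40. TNRC6B, the paralog of TNRC6A, differed by 0.16 and 0.10, and TNRC6C was detected on no array. The 19 detected genes of deadenylation and decay were evenly divided, 9 higher and 10 lower with miR-483 (median -0.02) and 10 and 9 with miR-551a (0.03). PABPC1, the poly(A)-binding protein, differed by -0.17 and -0.15, and PATL1, a decapping factor, by 0.09 and -0.13. Signs of medians this close to zero turned with median scaling, to 0.03 and -0.02, where the medians of all genes were 0.06 and -0.03.

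**Figure D4:**
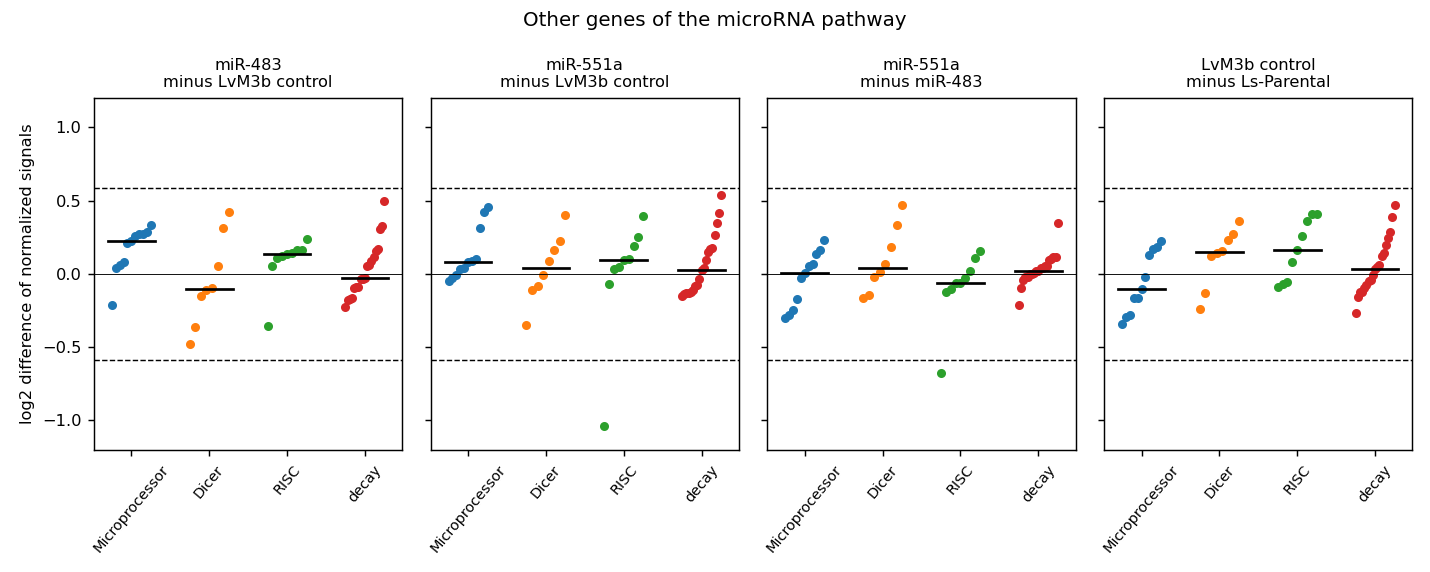
Log2 difference of normalized signals (y axis) for the detected genes of 4 other pathway lists (x axis), 1 panel per comparison and 1 point per gene, with black bars at list medians and dashed lines at 1.5-fold. The point below the dashed lines with miR-551a is AJUBA, at -1.03 against the control and -0.68 against miR-483.

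AGO3 had the widest range of the 9 set members detected on all 4 arrays. The genes with the most similar profile were COQ2, ITPRIP and KIAA1217, by Euclidean distance between log2 levels centred on each gene's mean over 4 arrays, among 8888 genes. Their distances were 0.047, 0.054 and 0.055. The match covers 4 arrays only and is a description. It used the brightest AGO3 probe, which was highest on the miR-483 array, where the second AGO3 probe was lowest.

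Promoter windows from RefSeq (GRCh38.p14, 250 bases before to 50 after a start) were read for 9 of the genes. AGO2, which lies on chromosome 8, was left out by rule. In the 7 genes with a single window the dinucleotide CG was present 28 to 57 times, against a median of 14 over 34943 windows. Of all 15 windows of the 9 genes 10 had at least 20, as did 41.0% of all windows. The others were 4 of the 5 windows of DICER1, with 0 to 15, and 1 of the 3 of TARBP2, with 19. DGCR8 had 57, AGO3 50, AGO1 30 and AGO4 29. Any link between these counts and the array levels was not tested.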

How the data were processed

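RNA was labelled with biotin and hybridised to bead arrays, per the labels' protocols. The deposited table holds a probe intensity per array with no normalization between arrays, per the file headers, and a deposited Detection score from 0 to 1, of which 1 minus the score was used as detection p. The authors also deposited scaled intensity values; their ratio to the first table is constant within an array (1.00 to 1.11), found from the values. The scanner software was not given in the sources used here.

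Signals were corrected with normexp from the detection p-values (offset 16), quantile normalized and put on a log2 scale (neqc, limma 3.58.1 in R 4.3.3). Probe symbols came from the platform annotation, updated through RefSeq: 27578 probes had 1 gene, 13 several and 21212 none. Each gene was read from its brightest probe. Genes detected (p under 0.01) on at least 1 of the arrays compared were counted at 1.5-fold. Steps were tested on simulated data.

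The members and lists were chosen with earlier results of these data known. Named genes were all members, list genes at 1.5-fold or else the 2 brightest, and 3 genes nearest in profile; NCBP1, RAN, TNRC6B, TNRC6C, LIN28A and LIN28B were named after their values were seen. Other settings were the authors' scaled values, no background correction, an offset of 50, median scaling, a detection p under 0.05, no detection filter, the mean of detected probes and 2-fold, and, chosen after seeing the data, 1.25-fold and then 1.2-fold.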

Additional observations from a re-analysis of the deposited data

How the results depend on the processing

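No paired analysis was possible because each group has 1 array. No replicate could be left out. The count of 0 members at 1.5-fold held in every comparison under all planned settings except median scaling. There 1 gene, AGO3, passed between the LvM3b control and Ls-Parental, as did 15.8% of all genes. A 2-fold threshold could not raise a count of 0, and the wider detection filters could add AGO4 only. With the authors' scaled values 0.56%, 1.09% and 0.40% of all genes passed in the first 3 comparisons. Without background correction the shares were 0.54%, 1.06% and 0.36%, so a count of 0 says little there. At 1.2-fold, chosen after seeing the data, 1 member passed for miR-483 over control, 3 for miR-551a over control, 2 for miR-551a over miR-483 and 4 for the control over Ls-Parental, where 21.3%, 25.7%, 18.2% and 43.6% of all genes did. A 1.25-fold threshold, also chosen after seeing the data and run before the 1.2-fold, gave 1, 2, 2 and 4 members in that order, and 14.6%, 17.9%, 12% and 35.5% of all genes. The count of 7 genes with the LvM3b arrays on 1 side of Ls-Parental, AGO4 included, was the same in all settings. With the authors' values and with median scaling, however, TARBP2 left it, DICER1 entered it and DROSHA changed side. For miR-483 over control the median of 0.040 became 0.034 without background correction, 0.093 with median scaling, 0.015 with a detection p under 0.05 or no filter, and turned to -0.018 with the mean of detected probes. For miR-551a over control the median of 0.24 became 0.19 with the authors' scaled values, 0.20 without background correction, 0.22 with an offset of 50, 0.20 with median scaling, 0.13 with either wider filter and 0.14 with the mean of probes. For miR-551a over miR-483 the median of 0.12 became 0.089 with the authors' values, 0.099 without background correction, 0.11 with an offset of 50, 0.044 with median scaling and 0.089 with either wider filter. For the control over Ls-Parental the median of 0.035 became 0.15 with the authors' values, 0.027 without background correction, 0.031 with an offset of 50, and 0.15 with median scaling. Single members kept their direction in all settings for 7 of 9 genes with miR-483, 7 of 9 with miR-551a, 6 of 9 between them and 9 of 10 against Ls-Parental. The wider detection filters leave each value unchanged, and under quantile normalization an offset of 50 or no background correction cannot turn a sign. Only the authors' scaled values, median scaling and, for AGO3, DICER1 and TARBP2, the mean of probes could turn one. The share of all genes that kept their direction was not computed. The cause of the shifts between settings was not tested. Signals near background limit AGO4.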
